A study of Rattus norvegicus with 21 samples.

Results

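The comparison described here was the response of the left ventricle of aged male rats to relaxin (RLX): 3 libraries of RLX-treated rats against 3 libraries of controls, 6 of the 21 libraries in the series. The 6 libraries were chosen by their labels, as male, 24 months old and treated with RLX or vehicle. All animals were F-344 Brown/Norway rats, and total RNA of the left ventricle was sequenced after removal of ribosomal sequences. The treated rats, numbered 2, 3 and 7 in the labels, received RLX at 400 ug/kg/day for 14 days through osmotic mini pumps placed under the skin. The controls, rats 8, 11 and 12, received the sodium acetate vehicle for the same time in the same way. The series also holds 8 libraries of 24-month females, 4 with RLX and 4 controls, and 3 libraries of 9-month control males. The females entered the test of sex by treatment, and both sets gave reference values and entered alternative fits. The remaining 4 libraries were of 9-month control females, whose slopes on exon length are shown in a figure.

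Relaxin is a peptide hormone best known from pregnancy. It acts mainly through the receptor RXFP1, which is coupled to G proteins and raises cyclic AMP and nitric oxide, and it is known as a vasodilator and as a brake on fibrosis. In heart muscle, stretch, injury and hormones switch on a first wave of immediate-early genes within minutes, among them the transcription factors of the FOS, JUN and EGR families, through the serum response factor, which binds CArG boxes, and through factors that bind the cyclic AMP response element. A slower response to load includes the natriuretic peptides, of which Nppb encodes B-type natriuretic peptide, a clinical marker of heart failure. The comparison asked which of these and other transcripts differed between the treated and the untreated aged male ventricle.

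The promoters of 4 genes on which the results below turn are shown as examples of the sequence in front of an immediate-early gene and of a natriuretic peptide gene. Each sequence is the RefSeq sequence of the GRCr8 build, from 250 bases before to 50 bases after the transcription start, 5' to 3' on the strand of the gene. Capitals mark CArG boxes and every TGACG or CGTCA, the core of the cyclic AMP response element on either strand. In Ier2 both cores overlap and form the full palindromic element. The Egr1 promoter (chr18:26736828-26737127, + strand) held 2 CArG boxes and 2 cores, that of Nr4a1 (chr7:134259888-134260187, + strand) held 4 cores, that of Ier2 (chr19:40399123-40399422, + strand) held 1 full element, and in that of Nppb (chr5:163699758-163700057, + strand) none of these letters were found.
Egr1: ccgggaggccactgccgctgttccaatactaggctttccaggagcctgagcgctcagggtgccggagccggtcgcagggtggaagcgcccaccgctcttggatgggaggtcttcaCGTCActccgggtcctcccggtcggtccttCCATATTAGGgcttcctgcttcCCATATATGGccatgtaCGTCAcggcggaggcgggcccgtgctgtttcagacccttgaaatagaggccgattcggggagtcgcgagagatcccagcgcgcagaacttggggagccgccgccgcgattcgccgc
Nr4a1: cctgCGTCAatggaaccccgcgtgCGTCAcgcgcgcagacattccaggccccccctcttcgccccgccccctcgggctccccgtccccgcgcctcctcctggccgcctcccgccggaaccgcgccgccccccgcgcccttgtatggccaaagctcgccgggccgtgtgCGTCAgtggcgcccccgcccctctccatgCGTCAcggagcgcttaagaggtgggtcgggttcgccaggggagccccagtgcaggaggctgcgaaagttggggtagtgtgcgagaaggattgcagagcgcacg
Ier2: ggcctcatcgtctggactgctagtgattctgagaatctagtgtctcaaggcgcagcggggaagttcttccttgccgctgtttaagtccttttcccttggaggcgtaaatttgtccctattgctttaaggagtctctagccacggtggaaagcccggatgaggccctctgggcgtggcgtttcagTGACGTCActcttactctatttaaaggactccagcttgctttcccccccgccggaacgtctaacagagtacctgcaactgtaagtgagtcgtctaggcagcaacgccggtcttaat
Nppb: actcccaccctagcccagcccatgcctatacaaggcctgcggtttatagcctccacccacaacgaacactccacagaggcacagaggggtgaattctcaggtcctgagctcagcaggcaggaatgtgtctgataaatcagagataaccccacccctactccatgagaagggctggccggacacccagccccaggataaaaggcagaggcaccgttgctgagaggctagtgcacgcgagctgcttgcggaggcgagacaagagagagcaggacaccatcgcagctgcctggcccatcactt

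The libraries held 11997512 to 15209797 counts with RLX and 13143608 to 19027947 in controls, and mitochondrially encoded transcripts took 35.92% to 49.57% and 39.38% to 43.48% of them. The cardiac myocyte markers Myh6, Actc1, Tnnt2, Tnni3 and Myl2 were abundant in every library, and the summed level of the 14 myocyte markers was 44419 to 49554 counts-per-million (CPM) with RLX and 57577 to 58323 CPM in controls, so the tissue label was borne out. All levels are CPM scaled by the trimmed mean of M-values (TMM), and summed levels cover every member of a list in the table, tested or not. Some libraries stood apart in single genes. Among 8666 genes with a mean of at least 5 CPM, 11 genes in control rat 12 lay more than 3-fold above every other library. Ccl2, Cxcl2, Il6, Il1rn and Spp1 were among them. In RLX rat 2 the hemoglobin genes Hba1, Hba2 and Hbb and the entry for the giant muscle protein gene Ttn did so too. That entry had 15941 exon bases, and whether it covers the whole transcript was not tested. In RLX rat 3, 7 genes lay more than 3-fold below every other library, Ier2 and Il6 among them. In such bulk samples, fewer cells of a type and less RNA per cell cannot be told apart, and the p-values measure the spread between these rats.

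How many single genes were called depended on the test. Of 12232 genes tested with edgeR's quasi-likelihood test, 0 (0%) were differentially expressed (DEGs: adjusted p at most 0.05, fold above 1.5, and an RPKM of 1 or more as the average of either group), and the smallest adjusted p was 0.283. At an unadjusted p under 0.05, 540 genes (4.41%) were higher and 924 (7.55%) were lower with RLX. The 3 RLX values lay above all 3 control values in 903 genes (7.38%) and below them in 1534 (12.5%). Other tests on the same counts called more, mostly in the lower direction: DESeq2 called 5 genes higher (0.0409%) and 107 lower (0.875%), voom with sample weights called 11 higher (0.0899%) and 151 lower (1.23%), and the edgeR exact test called 0 higher (0%) and 17 lower (0.139%). In the 3 tests together 189 genes were called, 175 lower and 14 higher, of which 93 were called by at least 2 tests and 9 by all 3. The DESeq2 count moved with single rats, from 1 DEG without RLX rat 3 and 21 without RLX rat 2 to 339 without RLX rat 7. In edgeR's quasi-likelihood test, leaving out control rat 11 gave the only DEG of the 6 leave-one-out fits, Hspb1 (adjusted p 0.0081).

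The clearest pattern across genes followed the length of the transcript. Short transcripts were lower and long transcripts were higher with RLX: the log2 fold change rose by 0.180 for each doubling of exon length across genes, which share their libraries and are not independent replicates. The genes were split by exon length into 10 bins of nearly equal size. In the bin of the shortest, with 132 to 931 bases of exon, the median log2 fold change was -0.36, 82.3% of the values were negative, and 412 of 1224 genes were lower and 11 higher at an unadjusted p under 0.05. In the bin of the longest, 4689 to 28692 bases, the median was 0.29, 12.2% were negative, and 212 genes were higher and 1 lower. The medians of the bins between them went up without a break from -0.17 to 0.19.

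**Figure D1:**
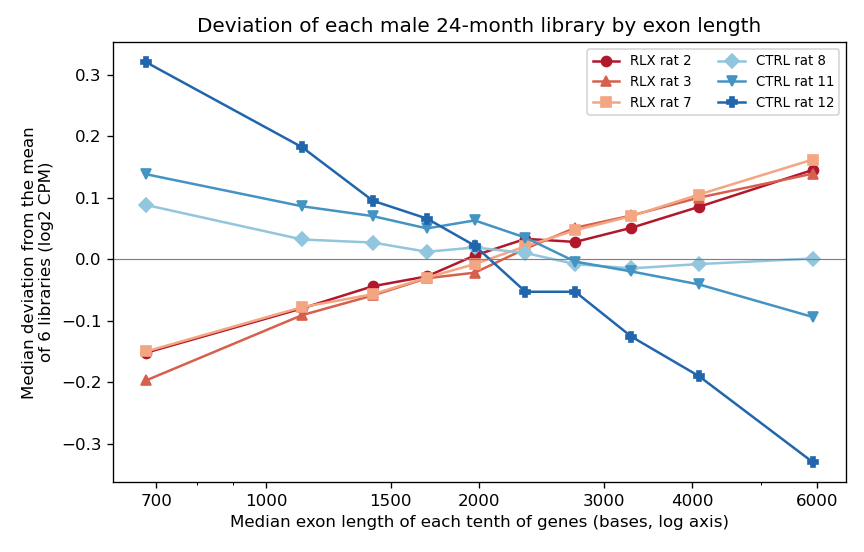
Median deviation of each of the 6 libraries from their mean (log2 CPM) against the median exon length of each of 10 bins of genes (log axis), 1 line a rat. The RLX rats go from between -0.197 and -0.150 in the shortest bin to between 0.139 and 0.162 in the longest, and control rat 12 goes from 0.320 to -0.330.

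The treated rats lay above all controls in the same measure taken library by library. The slope of a library's log2 CPM, as its deviation from the mean of the 6, on log2 exon length was 0.086 in RLX rat 2, 0.094 in rat 3 and 0.093 in rat 7 (mean 0.091, SD 0.004), so the treated rats lay close together. Among controls it was -0.021 in rat 8, -0.065 in rat 11 and -0.187 in rat 12 (mean -0.091, SD 0.086), so the controls were spread out and none reached the treated rats, with rat 8 close to 0. Since these slopes are deviations from a shared mean, the opposite group means follow from the construction. With 3 against 3 rats the exact permutation test gave a two-sided p of 0.1, the smallest this design allows. Without control rat 12, whose slope was the steepest, the trend was 0.132 per doubling, and without each other rat it was 0.180 to 0.214. The slope was similar from the least to the most abundant of 5 bins of genes, 0.148 to 0.202, and it was 0.117 with the genomic span of the gene in the same regression. Neither input RNA quality nor fragment size was measured in the files, and their part in the trend was not tested. The library totals behind the deposited RPKM values exceeded the summed counts by 15.17% to 19.32% with RLX and 13.34% to 14.45% in controls. The part of this difference in the trend was not tested either.

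**Figure D2:**
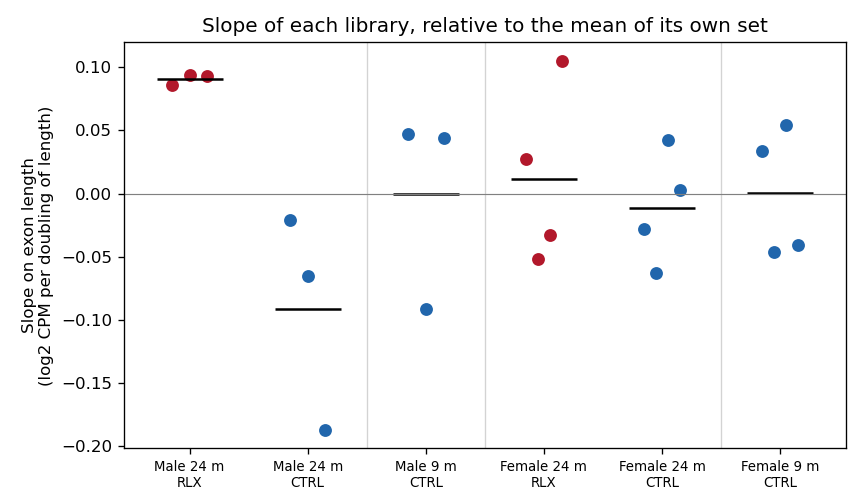
Slope of log2 CPM on log2 exon length in each library, as its deviation from the mean of its own set. The 3 RLX males lie between 0.086 and 0.094 and the 3 control males of 24 months between -0.187 and -0.021, whereas the 8 females of 24 months overlap between treatments.

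The same measure did not separate the female groups. In 24-month females the library slopes were 0.027, -0.052, -0.033 and 0.105 with RLX and -0.028, -0.063, 0.042 and 0.003 in controls, the slope of the fold change was 0.017, and the exact permutation test gave p = 0.629. The 9-month control males, set on their own mean, had slopes of 0.047, -0.091 and 0.044, so slopes also differed among these untreated rats. Set on the mean of all 9 males, RLX rats had slopes of 0.109 to 0.117, the 24-month controls 0.001, -0.043 and -0.166, and the 9-month controls 0.002, -0.135 and -0.000. The treated rats were the highest of the 9 on that scale, and a 9-month control reached nearly the slope of control rat 12.

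Because of this trend, the lists and many of the genes below are given both as deposited and after a smooth curve of log2 CPM on exon length was taken out of each library, which also takes out any response that itself follows length. After removal, 342 genes (2.8%) were higher and 488 (3.99%) lower at an unadjusted p under 0.05, no DEG was called by the quasi-likelihood test of edgeR (smallest adjusted p 0.718), and DESeq2 called 2 genes lower (0.0164%), Egr1 and Rpl35a_3. The shares over all genes are the background for the lists below. At an unadjusted p under 0.05 they are 7.55% lower and 4.41% higher as deposited, and 3.99% and 2.8% after removal. Of the 175 genes that other tests had called lower, 162 had exons shorter than the median of all genes, and 106 were in the shortest of the 10 bins. Their median exon length was 737 bases, against 2133 bases over all genes tested and 2965 bases in the 14 genes called higher. All 175 stayed below 0 after removal and 132 of them then had an unadjusted p under 0.05. Their median log2 fold change went from -0.74 to -0.48. These genes were picked as lower from the same counts, so the values after removal describe them and are not independent evidence.

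Immediate-early genes were lower with RLX both before and after the length trend was removed. Of 32 members tested, 31 had a negative fold change. At an unadjusted p under 0.05, 18 were lower and 0 higher (the background is 7.55% lower and 4.41% higher). In 12 every treated rat lay below every control (12.5% of all genes). The median log2 fold change of the list was -0.83, against 0.01 over all genes. After removal of the trend it was -0.76 with 18 lower (background 3.99%). The median exon length of the list was 2158 bases, close to that of all genes. Without single rats the median ranged from -0.95 to -0.66 and the number lower from 11 to 17. The summed level of the list was 2618, 1868 and 2002 CPM in RLX rats 2, 3 and 7 and 3009, 4002 and 4374 CPM in control rats 8, 11 and 12, so every treated rat lay below every control.

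**Figure D3:**
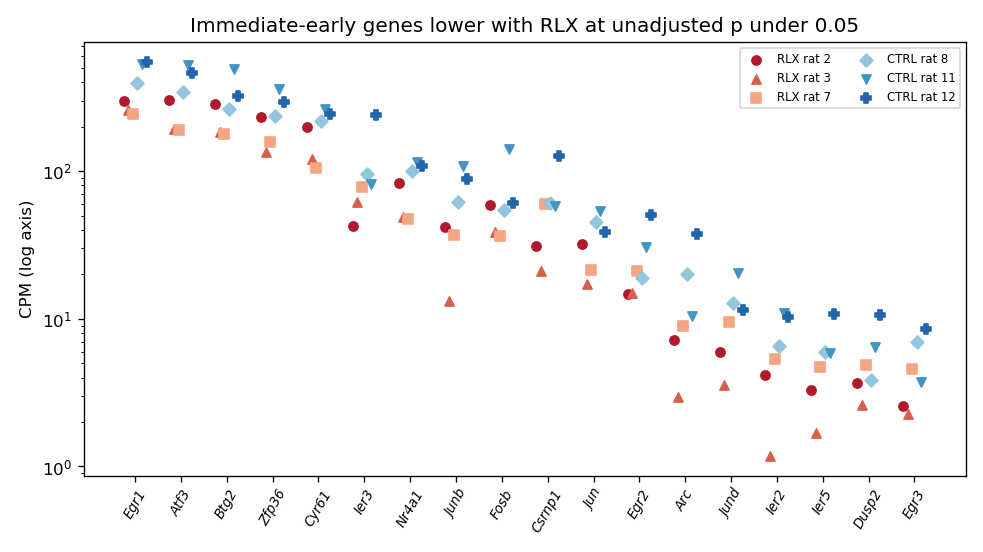
Levels (CPM, log axis) in each of the 6 rats of the 18 immediate-early genes that were lower at an unadjusted p under 0.05, 1 point a rat. Egr1 lies at 244 to 300.5 CPM in the RLX rats and at 395 to 548 CPM in the controls.

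Egr1, the zinc-finger factor whose promoter carries the pair of CArG boxes shown above, was at 300.5, 259 and 244 CPM in RLX rats 2, 3 and 7 and at 395, 529 and 548 CPM in control rats 8, 11 and 12. The highest treated rat was below the lowest control. Its log2 fold change was -0.84 (SE 0.164, unadjusted p 0.000499) and -0.95 after the trend was removed (unadjusted p 0.000292), and DESeq2 called it lower in both settings, with adjusted p 0.00964 and 0.0381. Atf3, a stress-induced repressor of the ATF family, was at 303, 194 and 189 CPM with RLX and 344, 521 and 460.3 CPM in controls. The groups did not overlap, the log2 fold change was -0.92 (SE 0.22, -0.88 after removal), and DESeq2 called it lower (adjusted p 0.016).

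The AP-1 subunits Jun and Junb showed the same order. Jun was at 32.3, 17.2 and 21.3 CPM with RLX and 45.5, 53.5 and 38.6 CPM in controls (log2 fold change -0.93, SE 0.233, -0.73 after removal), and DESeq2 gave an adjusted p of 0.0204. Junb was at 41.7, 13.2 and 37.2 CPM against 62, 108 and 88.6 CPM (log2 fold change -1.46, SE 0.409, -1.25 after removal, DESeq2 adjusted p 0.0125), with RLX rat 3 the lowest. Their partner Fos did not separate the groups. It was at 212, 70 and 67.6 CPM with RLX and 176, 428 and 193 CPM in controls, with RLX rat 2 among the controls, and its log2 fold change of -1.16 (SE 0.544) had an unadjusted p of 0.0712.

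Nr4a1, an orphan nuclear receptor gene with 4 cores of the cyclic AMP response element in the sequence above, was at 83.5, 49.2 and 47.5 CPM with RLX and 99.5, 116 and 108 CPM in controls. The groups did not overlap, and its log2 fold change was -0.82 (SE 0.218, -0.86 after removal, adjusted p 0.035 in DESeq2). Its relative Nr4a3 overlapped between groups, at 38.9, 46 and 42 CPM against 39.6, 39.8 and 67.7 CPM (log2 fold change -0.18, SE 0.22). Ier2, with the full element in its promoter, was at 4.17, 1.18 and 5.35 CPM with RLX and 6.57, 10.9 and 10.3 CPM in controls (log2 fold change -1.32, SE 0.442, unadjusted p 0.0152). Every treated rat was below every control for this weakly expressed gene, and DESeq2 gave it no adjusted p.

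Further members acted in signaling, matrix and mRNA decay. Arc, a synaptic gene that answers activity, was at 7.23, 2.95 and 8.89 CPM against 20.2, 10.4 and 37.7 CPM, a log2 fold change of -1.79 (SE 0.545). Zfp36, which encodes a protein that speeds the decay of cytokine mRNAs, was at 234, 135 and 157 CPM against 237, 362 and 292 CPM, so RLX rat 2 and control rat 8 lay next to each other (log2 fold change -0.73, SE 0.225). Cyr61, a matricellular protein gene, was at 199.6, 120.2 and 105 CPM against 218, 262 and 244 CPM (log2 fold change -0.74, SE 0.228). For Zfp36 and Cyr61 the unadjusted p was 0.00949 and 0.00936, and DESeq2 called neither.

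Promoters were matched for 19 of the 32 immediate-early genes tested. A CArG box stood in 5 of them (26.3%) and in 1.64% of all 33469 rat promoters of the same length, the full cyclic AMP response element in 5 (26.3%) and 1.83%, and its core in 12 (63.2%) and 21.2%. Of the 18 members lower at an unadjusted p under 0.05, 11 were matched, and 3, 3 and 8 of them held a CArG box, the full element and the core. These are matches of letters on either strand in a window of 300 bases, and each core inside a full element was counted as a core too. Matched members without the letters include Nr4a1 for the CArG box and Egr1 for the full element.

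Nppb was the gene with the smallest p in the quasi-likelihood test. It was at 273, 318 and 285 CPM in RLX rats 2, 3 and 7 and at 507, 536 and 588 CPM in control rats 8, 11 and 12, and neither group spread far. The log2 fold change was -0.87 (SE 0.136, unadjusted p 9.65e-05). The adjusted p was 0.283 in edgeR's quasi-likelihood test, 0.00729 in the edgeR exact test, 0.000948 in DESeq2 and 0.0281 in voom. Its exons span 628 bases, within the shortest bin, and after the length trend was removed the log2 fold change was -0.52 (unadjusted p 0.00189, adjusted p 0.368 in DESeq2).

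Of 22 wall stress and heart failure markers 6 were lower and 0 higher at an unadjusted p under 0.05 (7.55% and 4.41% of all genes), with a median of -0.32. After removal 7 were lower (3.99% of all genes), with a median of -0.26. Without control rat 12 the median as deposited was -0.06. Acta1, the skeletal actin gene that the fetal program of the heart uses, was at 138, 98.7 and 168 CPM with RLX and 283, 179 and 302 CPM in controls. The groups did not overlap (log2 fold change -0.89, SE 0.243, -0.78 after removal, adjusted p 0.034 in DESeq2). Rcan1, an inhibitor and target of calcineurin, was at 313, 284 and 416 CPM against 471, 515 and 469 CPM (log2 fold change -0.49, SE 0.16, -0.49 after removal), again without overlap.

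The other natriuretic peptide gene and the fetal myosin did not separate the groups. Nppa was at 289.9, 381 and 269 CPM with RLX and 505, 274 and 513 CPM in controls, with control rat 11 among the treated rats (log2 fold change -0.43, SE 0.252). Myh7, the slow myosin heavy chain, was at 4086, 4043 and 6473 CPM against 6641, 7389 and 4635 CPM (log2 fold change -0.32, SE 0.226). After removal Myh7, a long transcript, had a log2 fold change of -0.58 and an unadjusted p of 0.0136. Gdf15, a stress-induced member of the TGF-beta family, was at 1.7, 2.28 and 5.95 CPM against 6.97, 7.52 and 22.1 CPM, a log2 fold change of -1.80 (SE 0.613) that was -1.52 after removal and -1.04 without control rat 12.

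Id3 had the second smallest p. This inhibitor of basic helix-loop-helix factors was at 17.1, 22.1 and 26.4 CPM with RLX and 42.7, 49.5 and 47.3 CPM in controls. Its log2 fold change was -1.06 (SE 0.18, unadjusted p 0.000186) and -0.83 after removal. The edgeR exact test, DESeq2 and voom each called it, with adjusted p 0.00515, 0.00171 and 0.0281. Abra, an activator of serum response factor in striated muscle, was at 71.5, 41.2 and 58.9 CPM against 127, 102 and 137 CPM (log2 fold change -1.06, SE 0.21, -0.93 after removal). The treated rats of both genes lay well below all controls. The thyroid hormone binding protein gene Crym was at 36.9, 35.6 and 49.4 CPM against 73.6, 67 and 73 CPM (log2 fold change -0.78, SE 0.16, -0.62 after removal), and Txn2, mitochondrial thioredoxin, at 57.6, 48 and 59.1 CPM against 90.6, 98.5 and 87 CPM (log2 fold change -0.72, SE 0.14, -0.58 after removal). DESeq2 called all 3 of Abra, Crym and Txn2 lower, with adjusted p 0.00639, 0.0133 and 0.00964.

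Among other lower genes without overlap, Fam69b was at 5.19, 3.46 and 5.47 CPM against 10.6, 12.8 and 8.95 CPM and Nenf, which encodes the secreted protein neudesin, at 30.7, 29.9 and 39.7 CPM against 54.2, 57.2 and 59.9 CPM. Fxyd1, phospholemman, a regulator of the sodium pump, was at 129, 113 and 153 CPM against 206, 214 and 238 CPM (log2 fold change -0.70, SE 0.151). The last 2 are short transcripts and their log2 fold changes shrank to -0.41 and -0.31 after removal. Rbm38, an RNA-binding protein gene of average length, was at 19, 17.6 and 26.5 CPM against 40.9, 40.7 and 35.3 CPM, with a log2 fold change of -0.86 (SE 0.183) before and -0.88 after removal. Mt1_2, a metallothionein entry, was at 22.1, 9.7 and 22.4 CPM against 37.3, 61.2 and 66 CPM, and its value is uncertain because reads may be split among near-identical copies. The nucleotide hydrolase gene Nudt8 and the lysosomal scaffold gene Lamtor2 had log2 fold changes of -0.75 and -0.66 without overlap, -0.44 and -0.30 after removal, and DESeq2 called both.

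Genes called higher with RLX were fewer than those called lower, and most of the leading ones were long. Gda, guanine deaminase, was at 73.5, 69.3 and 65.1 CPM with RLX and 46.4, 51.3 and 38 CPM in controls (log2 fold change 0.64, SE 0.152, 0.74 after removal). Dmxl1, whose protein helps assemble the proton pump of vesicles, was at 41.7, 48.2 and 41.6 CPM against 30.4, 27.6 and 29 CPM (log2 fold change 0.63, SE 0.144, 0.27 after removal). DESeq2 called both higher, with adjusted p 0.0204 and 0.0209. Pcdha8, a protocadherin gene in a cluster whose members share exons, so that its counts are uncertain, was at 4.17, 3.8 and 2.88 CPM against 1.31, 0.557 and 1.64 CPM (log2 fold change 1.70, SE 0.399, 1.46 after removal). These 3 were higher in every treated rat than in any control.

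Cd2ap, an adaptor between receptors and actin, was at 18.8, 20.9 and 18.6 CPM against 12.8, 12.9 and 10.6 CPM, and Mob1b, a cofactor of the Hippo kinases, at 13.9, 12.7 and 12.6 CPM against 8.28, 8.3 and 8.08 CPM. Both had exons of ordinary length and kept their log2 fold changes, 0.71 and 0.70 before and 0.74 and 0.64 after removal. Osbpl8, a lipid transfer protein gene, was at 4.34, 4.98 and 5.05 CPM against 2.5, 2.84 and 2.69 CPM, with 0.87 before and 1.00 after. By contrast the long transcripts lost much of theirs: Iqgap1, a cytoskeletal scaffold, went from 0.54 to 0.26, Ash1l, a histone methyltransferase, from 0.58 to 0.22, Mga, a partner of MAX, from 0.60 to 0.24, and Thoc2, part of the mRNA export complex, from 0.78 to 0.46. Phip and the kinase gene Slk went from 0.78 to 0.54 and from 0.60 to 0.44.

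Cytosolic ribosomal protein genes, the protein part of the ribosome and nearly all short, were lower in 59 of 65 members and higher in 0 at an unadjusted p under 0.05. In 61 every treated rat lay below every control. Over all genes these shares were 7.55% lower and 12.5% without overlap. In the shortest bin 412 of 1224 genes were lower and 517 lay below without overlap. The median log2 fold change of the list was -0.60, and DESeq2 called 26 members lower (0.875% of all genes). After the length trend was removed the median was -0.29 and 29 were lower (background 3.99%, and 91 of 1224 genes in the shortest bin). The median deviation of the list from the mean of the libraries was then -0.23, -0.12 and -0.04 in RLX rats 2, 3 and 7. In control rats 8, 11 and 12 it was 0.06, 0.02 and 0.35, so rat 12 stood apart here too. The summed level was 26752, 27736 and 30124 CPM with RLX and 38298, 39015 and 54116 CPM in controls, with control rat 12 far above the other controls. Without that rat the median as deposited was -0.41 and 49 were lower.

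Rps21 was at 161, 151 and 209 CPM in RLX rats 2, 3 and 7 and at 284, 305 and 361 CPM in control rats 8, 11 and 12 (log2 fold change -0.84, SE 0.165, -0.38 after removal). Rplp2, of the ribosomal stalk, was at 155, 127 and 209.8 CPM against 293, 302 and 346 CPM (log2 fold change -0.91, SE 0.187, -0.49 after removal), and Rps26 at 86.5, 67 and 147 CPM against 221, 232 and 345 CPM (log2 fold change -1.38, SE 0.297, -0.95 after removal). In these genes rat 7 was the highest of the treated rats and rat 12 the highest control. Rpl35a_3 and Rps29_2 are entries for further copies, whose reads may be split among near-identical sequences. Rpl35a_3 was at 7.74, 9.28 and 16.9 CPM against 30.9, 39.8 and 60.4 CPM, and Rps29_2 at 476, 412 and 568 CPM against 816, 827 and 1068 CPM.

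Nuclear-encoded subunits of the respiratory chain and mitochondrial ribosomal proteins, also short, were lower as deposited, and few stood out once the length trend was removed. Of 69 respiratory chain subunits 36 were lower and 0 higher (median -0.34), and 4 were lower after removal (median -0.07). Of 69 mitochondrial ribosomal proteins 27 were lower (median -0.29), and 2 after removal (median -0.06). Over all genes 7.55% were lower as deposited and 3.99% after removal. Cox6a2, a heart and muscle subunit of cytochrome c oxidase, was at 748, 645 and 1014 CPM with RLX and 1261, 1313 and 1530.1 CPM in controls (log2 fold change -0.74, SE 0.178, -0.33 after removal). Cox6b1, of the same complex, was at 209, 161 and 321 CPM against 413, 429 and 461 CPM (log2 fold change -0.89, SE 0.223, -0.47 after removal). Atp5e, of ATP synthase, was at 523, 497 and 693 CPM against 897, 970.2 and 1022 CPM (log2 fold change -0.72, SE 0.155, -0.30 after removal). All 3 separated the groups.

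The 13 protein genes of the mitochondrial genome, subunits of the same complexes, were not lower. Their median log2 fold change was 0.02 with 0 lower and 0 higher at an unadjusted p under 0.05, and 0.26 with 1 higher after removal. Their summed level was 467268, 560814 and 328284 CPM with RLX and 426049, 417347 and 549905 CPM in controls, so rats 7 and 12 went against the rest of their groups.

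**Figure D4:**
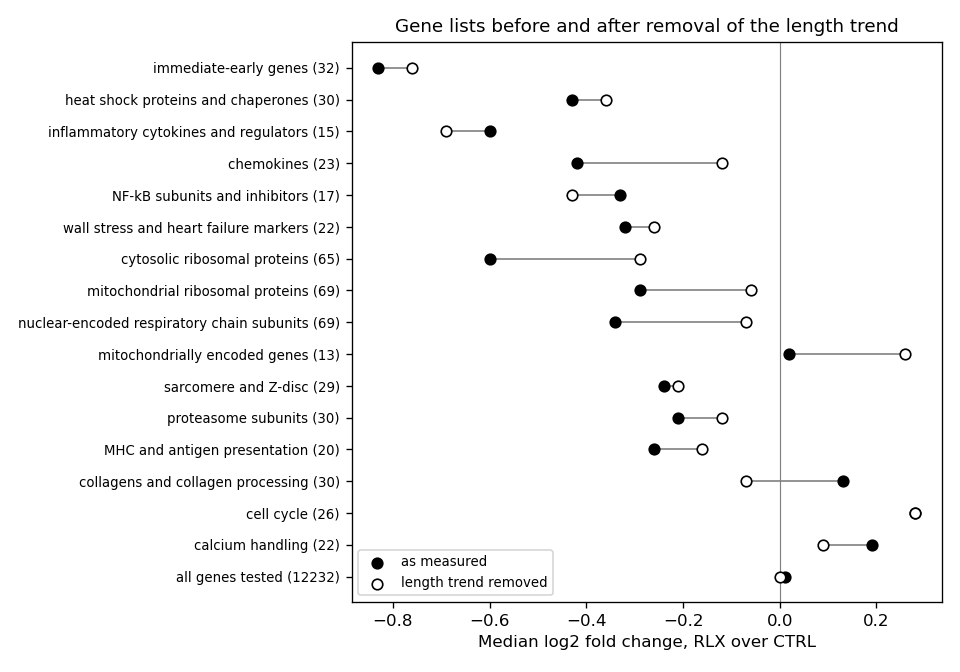
Median log2 fold change of RLX against control for each gene list, as deposited and with the length trend removed. Cytosolic ribosomal proteins go from -0.60 to -0.29 and respiratory chain subunits from -0.34 to -0.07, and immediate-early genes stay at -0.83 and -0.76.

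Heat shock proteins and chaperones were lower in 10 of 30 members and higher in 0 (7.55% and 4.41% of all genes, median -0.43). They were lower in 8 members after removal (3.99% of all genes, median -0.36). Without control rat 12 the median was -0.24, and without single rats 5 to 16 were lower. Hspb1, the small heat shock protein HSP27, was at 223, 202 and 262 CPM with RLX and 740.3, 315 and 1044 CPM in controls. All treated rats were below all controls, but the controls differed among themselves by more than 3-fold (log2 fold change -1.59, SE 0.395, adjusted p 0.00442 in DESeq2), and the value was -1.29 after removal and -1.17 without rat 12. Cryab, alpha B-crystallin, was at 2421, 2525 and 3065 CPM against 3648, 3539 and 4032 CPM (log2 fold change -0.46, SE 0.142, -0.31 after removal). The inducible Hsp90aa1 and Hsph1 followed single rats: Hsp90aa1 was at 1206, 2489 and 1499 CPM against 3068, 861 and 5310.2 CPM, and Hsph1 at 218, 419.9 and 319 CPM against 668, 102 and 1228 CPM, with control rat 11 the lowest of the 6 in both.

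Of 29 sarcomere and Z-disc genes 9 were lower and 3 higher (7.55% and 4.41% of all genes, median -0.24). After removal 9 were lower and 1 higher (3.99% and 2.8% of all genes, median -0.21). Des, desmin, the intermediate filament of muscle, was at 999.9, 991 and 1363 CPM against 1601, 1597 and 1948 CPM (log2 fold change -0.59, SE 0.165, -0.60 after removal). Tnnc1, cardiac troponin C, was at 2788, 2955 and 3258 CPM against 4121, 4382 and 4989 CPM (log2 fold change -0.55, SE 0.138, -0.22 after removal, adjusted p 0.0357 in DESeq2). Neither gene overlapped between groups. Ldb3, a long Z-disc gene, was at 457, 442 and 475 CPM against 602, 567 and 488 CPM, with a log2 fold change of -0.24 (SE 0.133) that was -0.50 after removal (unadjusted p 0.000985). In the same libraries 6 of 14 myocyte markers were lower and 1 higher (median -0.26, -0.17 after removal), and the part of myocyte content in these values was not tested.

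Cytokine and chemokine genes moved with single rats, control rat 12 and RLX rat 7 among them. The background for the counts here is 7.55% lower and 4.41% higher as deposited, and 3.99% and 2.8% after removal. Of 15 inflammatory cytokine genes and regulators tested, 3 were lower and 1 higher, with a median of -0.60 that was -0.69 after removal and 0.05 without control rat 12. Of 23 chemokines 4 were lower and 0 higher, with a median of -0.42 that was -0.12 after removal, with 3 lower and 1 higher. Without control rat 12 the chemokine median was -0.24, without RLX rat 7 it was -0.75, and without single rats 2 to 11 were lower. The summed chemokine level was 3047 CPM in rat 12 and 577 to 1200.0 CPM in the other 5 libraries, and the summed cytokine level 501 CPM and 162 to 283 CPM. Of 17 NF-kB subunits and inhibitors 2 were lower and 0 higher, and after removal 0 were lower and 1 higher. Their median was -0.33, and it was -0.43 after removal, -0.06 without rat 12 and -0.73 without rat 7. Macrophage and monocyte markers, summed over 16 genes, lay at 677 to 976 CPM with RLX and 726 to 829.9 CPM in controls, and in rat 12 at 829.9 CPM.

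Il1b, interleukin-1 beta, was at 13.9, 14.3 and 40 CPM in RLX rats 2, 3 and 7 and at 44.4, 62.2 and 127 CPM in control rats 8, 11 and 12. The groups did not overlap but came close in rats 7 and 8 (log2 fold change -1.73, SE 0.543, unadjusted p 0.0153), and the value was -1.59 after removal, -1.17 without rat 12 and -2.42 without rat 7. Il6 was at 9.69, 2.36 and 7.63 CPM against 14.3, 12.3 and 60.6 CPM (log2 fold change -2.10, SE 0.757, -1.87 after removal, -0.97 without rat 12). Ccl2, the monocyte chemoattractant, was at 77.8, 153 and 245 CPM against 287, 232 and 1067 CPM, with RLX rat 7 above control rat 11 (log2 fold change -1.71, SE 0.674, -1.37 after removal, -0.66 without rat 12). Rat 7 was the highest treated rat in 2 of these 3 genes, and rat 12 the highest control in each. The related Ccl12 did not turn on rat 12: it was at 0.17, 1.35 and 1.8 CPM against 4.86, 8.74 and 5.49 CPM (log2 fold change -2.44, SE 0.536, -2.07 after removal, adjusted p 0.0116 in the edgeR exact test).

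**Figure D5:**
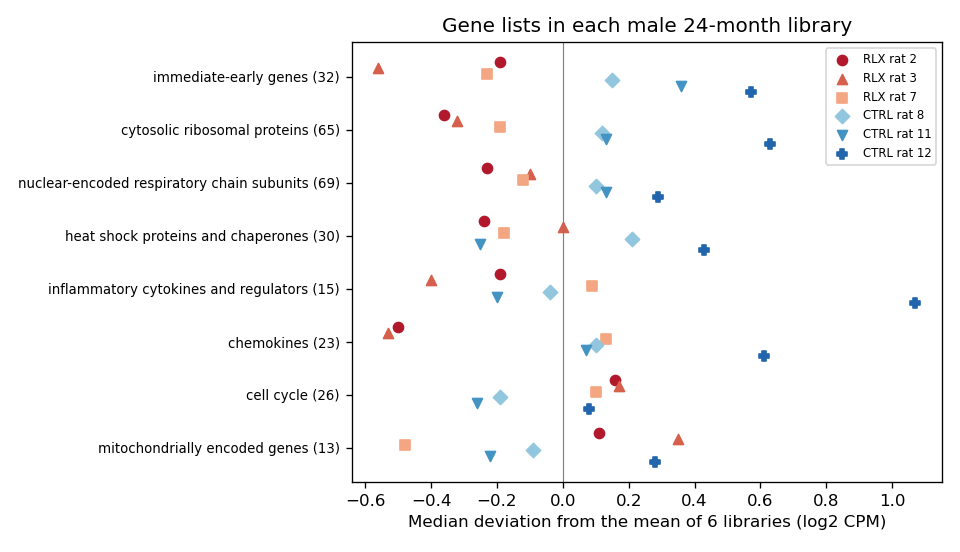
Median deviation of gene lists in each of the 6 rats from the mean of the 6, in log2 CPM. Immediate-early genes lie at -0.19, -0.56 and -0.23 in the RLX rats and at 0.15, 0.36 and 0.57 in the controls, whereas cytokines are at 1.07 in control rat 12 and at -0.04 and -0.20 in the other controls.

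Of the genes that the study tabulated as related to heart disease or as chemokines, 32 were followed here and a few others were not. The tables were made with results of these same libraries, so the direction of these genes is given as a description and not as independent evidence. Of the 30 tested, 7 were lower and 0 higher at an unadjusted p under 0.05 (7.55% and 4.41% of all genes). A negative fold change was found in 22 of them (48.72% of all genes). Their median was -0.29 as deposited and -0.13 after removal, with 5 then lower (3.99% of all genes). DESeq2 called 1 of them (0.875% of all genes were called lower and 0.0409% higher).

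Genes of the relaxin pathway itself did not differ beyond their spread. Rxfp1 was at 0.935, 1.35 and 0.661 CPM with RLX and 1.71, 0.891 and 0.481 CPM in controls, from 5 to 26 counts a library (log2 fold change -0.10, SE 0.499, unadjusted p 0.85), so the depth allowed only a wide interval. Of the 14 genes for relaxin receptors, nitric oxide synthesis, guanylate cyclase and endothelin signaling that were tested, 0 were higher and 0 lower (median 0.21, 0.05 after removal). Ednrb, an endothelin receptor gene, was at 22.3, 16.3 and 19.7 CPM against 17.3, 15.4 and 15.6 CPM. Of 30 collagen and collagen processing genes 2 were higher and 1 lower (median 0.13, -0.07 after removal and -0.06 without control rat 12). Over all genes 4.41% were higher and 7.55% lower, so the list lay near the background. Col3a1, a major fibrillar collagen, was at 366, 241 and 327 CPM against 297, 213 and 196 CPM (log2 fold change 0.43, SE 0.204, 0.23 after removal), with overlapping groups.

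Cell cycle genes had positive values for the most part, 21 of 26 tested. The unadjusted p was under 0.05 in 4 higher and 0 lower ones (4.41% and 7.55% of all genes, median 0.28). After removal it was in 2 higher ones (2.8% of all genes, median 0.28). Without single rats 0 to 4 were higher, with medians of 0.21 to 0.36. Mki67, a marker of dividing cells, was at 7.65, 6.92 and 9.68 CPM against 4.86, 2.56 and 6.06 CPM (log2 fold change 0.90, SE 0.316, unadjusted p 0.0181, 0.51 after removal). Top2a, a topoisomerase of dividing cells, was at 2.89, 2.11 and 1.44 CPM against 1.51, 0.891 and 0.77 CPM, with RLX rat 7 below control rat 8. Markers of T and NK cells had a median of 0.27 with 1 of 14 higher and 1 lower. After removal the median was 0.37 with 2 higher and 0 lower. They summed to 175 to 182 CPM with RLX and 130.0 to 173 CPM in controls.

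Markers of blood set RLX rat 2 apart. The 8 erythroid genes in the table summed to 333 CPM in that rat and to 7.89 to 20.8 CPM in the other 5. The Ttn entry was at 86.6 CPM there and at 8.08 to 11.4 CPM elsewhere. The median log2 fold change of the 4 erythroid genes that passed the count filter was 3.36 with rat 2 and -0.32 without it. The defining neutrophil marker S100a8 had 0 to 5 counts a library. Of the adipocyte markers the defining Adipoq had 0 to 3 counts, whereas the whole list summed to 444 to 963 CPM with RLX and 552 to 968 CPM in controls. Most of that sum was Fabp4, at 844, 503 and 319.6 CPM with RLX and 500.2, 807 and 425 CPM in controls. The sum therefore followed mainly 1 gene. Of the 5 tested members of the list 2 were lower and 0 higher (7.55% and 4.41% of all genes, median -0.38). After removal 0 were lower (3.99% of all genes, median -0.31). Endothelial markers had a median of 0.25, 0.21 after removal and 0.01 without control rat 12. As deposited, 1 of 14 was higher (4.41% of all genes), near the background. The part of these cell contents in the results above was not tested.

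Whether the response differed from that of 24-month females was tested as the interaction of sex and treatment over 13017 genes in 14 libraries. The quasi-likelihood test of edgeR called 0 genes (0%, smallest adjusted p 0.113), with 1841 at an unadjusted p under 0.05. DESeq2 called 383, of which 323 had a lower value in males, and the quasi-likelihood test called 7 after the length trend was removed within each sex. Rbm20, a splicing regulator of titin, had the smallest adjusted p of these (0.0137 in edgeR), with a male minus female difference of -0.91 after removal. Its log2 fold changes as deposited were -0.12 in males and 0.54 in females (difference -0.66, adjusted p 0.131 in edgeR). Fhl2, a LIM protein of the sarcomere, was at 275 to 343 CPM with RLX and 333 to 437 CPM in male controls, and at 459.9 to 493 CPM with RLX and 289 to 358 CPM in female controls. Its log2 fold changes were -0.33 and 0.59, a difference of -0.92 (SE 0.162, adjusted p 0.113 in edgeR). The adjusted p was 0.000112 in DESeq2 as deposited, and 0.197 in edgeR after removal of the trend. Itm2a went the other way, with 0.35 in males and -0.71 in females (difference 1.06, SE 0.184, adjusted p 0.113 in edgeR). After removal of the trend within each sex its difference was 1.15 (adjusted p 0.0298 in edgeR). These 3 genes were named after their values were seen. The sexes were loaded on the sequencer at different concentrations and deposited in separate tables, so sex and these differences cannot be told apart for levels, although both arms of each contrast lie within a sex.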

How the data were processed

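Left ventricles of 21 rats were sequenced with a stranded total RNA kit after removal of ribosomal sequences. The authors mapped the reads to the rat genome in the Biomedical Genomics Workbench and deposited, for 26597 genes, total counts and RPKM; which build they used was not given in these sources. The deposited RPKM values divide counts by exon length and by a library total. In these 6 libraries that total was 15.17% to 19.32% above the summed counts with RLX and 13.34% to 14.45% in controls. Exon length was recovered from the ratio of counts to RPKM for the 18834 genes with reads. The deposited CPM and TPM columns were not used, and 0 sample columns were left unmapped.

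Counts of the 6 male 24-month libraries were tested with edgeR (4.0.16, R 4.3.3): filterByExpr, TMM, robust quasi-likelihood fit, group as the only term, two-sided, Benjamini-Hochberg over 12232 genes. DESeq2 (1.42.0), the edgeR exact test and limma's voom with sample weights (3.58.1) were alternatives, with an adjusted p that DESeq2 gave as NA kept as NA. A DEG had an adjusted p of at most 0.05, a fold above 1.5 and an RPKM of at least 1 as the mean of either group. The length trend was removed by offsets from a lowess (span 0.3) of each library's log2 CPM deviation (prior count 2) on log2 exon length. Library slopes were compared by an exact permutation test. The scripts were tested on simulated data.

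The named genes were the 12 higher and 12 lower genes of smallest p without overlap of the groups (6 and 6 with the trend removed), genes called by at least 2 of the 3 other tests, up to 4 leading members of each list, genes the study tabulated, and relaxin receptors. A gene that this rule names is not reported here. Other members, such as Fos, Nr4a3, Junb, Arc, Zfp36, Cyr61, Ier2, Myh7, Hsp90aa1 and Hsph1, were named after their values were seen. The comparison and the gene lists were chosen with earlier results of these data known. Lists were described by counts and medians and were not tested as sets. Promoters were matched by symbol to RefSeq (GRCr8). Male RLX rats 2, 3 and 7 and control rats 8, 11 and 12 share no number, so nothing paired them.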

Additional observations from a re-analysis of the deposited data

How the results depend on the processing

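The count of DEGs was 0 in the quasi-likelihood test and stayed 0 with RLE or upper quartile factors, with no filter, with the library totals behind RPKM, with the 9-month males in the fit and with the length trend removed. It was 17 in the edgeR exact test, 112 in DESeq2, 162 in voom, 2 in DESeq2 with the length trend removed and 140 with the 8 females of 24 months in the fit, an alternative chosen after seeing the data. Without each replicate in turn it was 0 to 1. Genes higher at an unadjusted p under 0.05 numbered 540, and 1003 in voom, 342 with the trend removed, 286 with the trend removed in DESeq2 and 333 to 677 without each replicate. Genes lower numbered 924, and 1396 in voom, 488 with the trend removed, 403 with the trend removed in DESeq2, 1459 with the females in the fit and 580 to 1292 without each replicate. The cause of these shifts was not tested.

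The trend of 0.180 on exon length was 0.117 with the gene span in the regression, -0.003 after its own removal and 0.132 to 0.214 without each replicate. Genes whose RLX effect differed between sexes numbered 0 in the quasi-likelihood test, 7 with the trend removed within each sex and 383 in DESeq2. With the female rat number as a replicate block the count was 0 (1424 at an unadjusted p under 0.05, smallest adjusted p 0.168 in edgeR). No paired analysis was possible because the male groups share no rat number.

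Of 1156 values of 68 named genes under alternatives, 1056 kept their direction and side of the threshold, 96 passed it and 4 turned: Nr4a3, -0.18, was 0.02 in voom and -0.32 to 0.13 without each replicate, turning without control replicate 12, and Rxfp1, -0.10, was -0.39 to 0.47 without each replicate, turning without control replicate 8 (0.47) or RLX replicate 7 (0.15). Depth limited weakly expressed genes such as Rxfp1.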

Other observations

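Further lists are described by their members past an unadjusted p under 0.05 and by medians of the log2 fold change, before and after removal of the length trend. The background is 7.55% lower and 4.41% higher as deposited, and 3.99% lower and 2.8% higher after removal. Among protein quality control and redox genes, 7 of 30 proteasome subunits were lower and 1 after removal (median -0.21 and -0.12, -0.10 without control rat 12), and 9 of 27 Nrf2 targets and antioxidant enzymes were lower and 2 after removal (median -0.27 and -0.14, -0.09 without that rat). Of 36 translation initiation factors 6 were lower and 1 after removal (median -0.13 and -0.09, 0.02 without that rat). Of 20 genes of antigen presentation 6 were lower and 0 after removal (median -0.26 and -0.16). Of 33 interferon response genes 3 were lower and 0 higher, and after removal 0 were lower and 1 higher (median -0.10 and -0.07). Complement genes had medians of 0.04 and 0.08 with 1 of 20 higher and 1 lower, and 1 higher and 0 lower after removal.

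In metabolic lists, 6 of 31 genes of fatty acid uptake and oxidation, 4 of 27 of glucose uptake and glycolysis and 2 of 20 of the TCA cycle were lower and 0 higher, each list with a median of -0.13. After removal 3, 4 and 1 of them were lower, and the medians were -0.05, -0.16 and -0.09. Calcium handling genes had 2 of 22 higher and 1 lower (median 0.19 and 0.09), ion channels and connexins 0 of 24 higher and 1 lower (median 0.07 and 0.04). For the TGF-beta pathway 1 of 25 was higher and 0 lower (median -0.03 and -0.08), for matrix proteases and inhibitors 2 of 21 were higher and 1 lower (median -0.06 and -0.08), and for p53 targets 3 of 24 were lower and 4 after removal (median -0.23 and -0.13). Without control rat 12 the p53 median was -0.00, and without RLX rat 7 it was -0.42.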
